A study of Mus musculus with 60 samples.

Results

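Astrocytes of AD model mice were compared with astrocytes of WT mice at 6 months of age, gene by gene. The deposited table held 35999 genes, and the 14750 with at least 0.5 FPKM in the AD or the WT column at this age were kept. FPKM is the number of sequenced fragments per unit of gene length and of sequencing depth. The AD mice carried the APPswe/PS1-delta=E9 transgenes, and the WT mice were C57BL/6 littermates without them. Both transgenes are driven by the prion protein promoter in this model, and the model deposits human amyloid-β in the brain. All mice were male and 6-month-old, with 3 mice in each genotype and 1 brain for each library. Astrocytes were sorted by flow cytometry as ACSA2-positive cells from whole brain after removal of the meninges and of myelin, so every brain region was mixed in each library. The other astrocyte groups of the series were of 2, 4, 9 and 12 months, and they serve here only to place the 6-month values.

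Astrocytes clear glutamate and potassium from the extracellular space, supply neurons with lactate, glutamine and cholesterol, and line the blood vessels with their endfeet. Their Notch, Wnt and BMP signals hold them in a mature state, and glucocorticoids from the adrenal gland, whose level in blood follows the time of day and stress, act on them through a nuclear receptor that binds DNA directly. Near amyloid plaques astrocytes are known to become reactive, with more of the filament protein GFAP and of immune genes.

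The table gave 1 value for each gene and group, which is the mean of 3 libraries. The digits of these means allowed the whole fragments of each library to be recovered for 14477 of the 14750 genes (98.1%). The recovered libraries carried no sample name, so they are called A, B and C within each genotype, in arbitrary order. Genes with more than 60000 fragments in a group were not resolved, nor were some with fewer, and for these only the group value is given. Fragments grow with gene length as well as with FPKM, so unresolved genes are not always those of highest FPKM. Libraries held 11.1 to 12.5 M fragments in resolved genes.

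Higher and lower genes were those whose AD and WT group values lay more than 0.5 apart on the log2 scale, after scaling of the columns and addition of 0.1 FPKM. Ratios between groups are given after this scaling, whereas FPKM values are as deposited or recovered. By this measure 1387 genes were higher (9.4% of those kept) and 1679 were lower (11.4%). A gene below 0.5 FPKM in the AD or the WT column was kept only through the other, so the filter limited the direction it could show. Among the genes described below, at least Zbtb16, Fkbp5, Per2 and Lamr1-ps1 were kept through AD alone, and Klk1b22 and Cacng6 through WT alone. The 3 AD libraries lay above all 3 WT libraries in 16.9% of resolved genes and below them in 16.4%. The shares given here over all genes are the background for the list counts below. With limma over the 6 libraries, 17 genes rose (0.117%) and 6 fell (0.0414%) at an adjusted p under 0.05, and 3738 had an unadjusted p under 0.05. The words "rose" and "fell" are kept here for these 23 genes, whereas "higher" and "lower" describe the group values.

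The libraries did not stand equally close to each other. Spearman's rho across genes, which are not independent replicates, was 0.983 to 0.985 between WT libraries and 0.976 between AD libraries B and C. It was 0.958 and 0.955 between AD library A and the other AD libraries, which is within the 0.950 to 0.966 found between WT and AD libraries. The median coefficient of variation was 6.04% in WT and 11% in AD. Without AD library A, limma called 1226 genes higher (8.47%) and 1766 lower (12.2%), 2992 in all. Leaving out AD library B left 7 calls, WT library B 10, and none remained without AD library C, WT library A or WT library C. The number of calls therefore depended strongly on which libraries entered the fit, and most of all on AD library A.

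**Figure D1:**
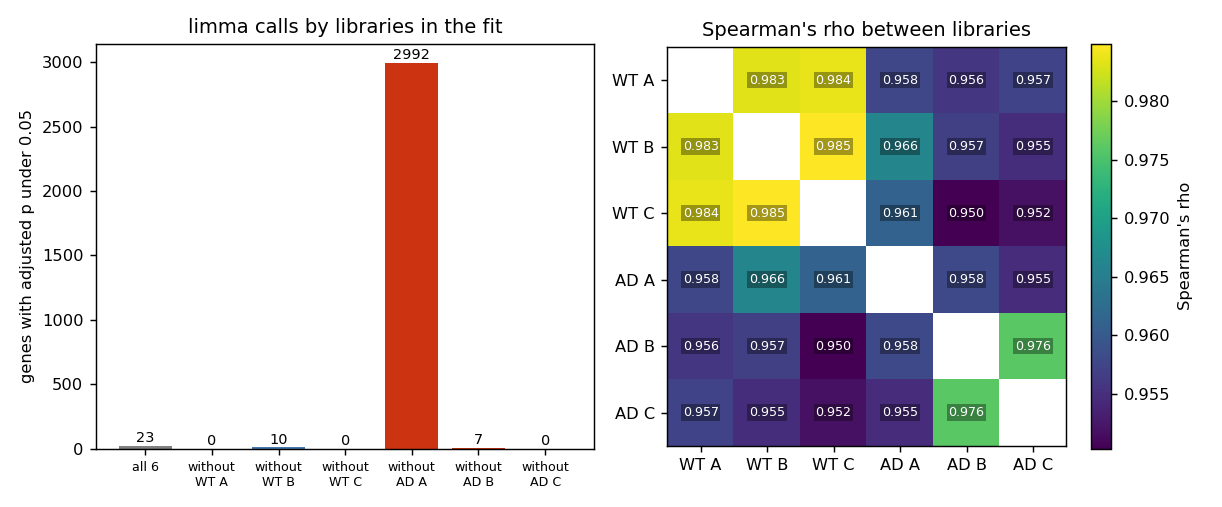
Left, number of genes with a limma adjusted p under 0.05 (y axis) with all 6 libraries and with each library left out in turn (x axis). Right, Spearman's rho across genes for each pair of libraries, with the colour scale beside it. The 2992 calls without AD library A stand against 23 with all libraries, and AD library A is as far from AD libraries B and C as from WT libraries.

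The WT 6-month column departed from the other ages more often than the AD column did. Of the 1679 lower genes, 1314 had their WT 6-month value above all 8 astrocyte columns of other ages, whereas 146 had their AD 6-month value below all 8. Of the 1387 higher genes, the WT value was below all 8 in 844 and the AD value above all 8 in 245. Such counts over all kept genes are not given here, so those of single lists below have no background beside them. With 1 group of 3 mice for each genotype and age, genotype and any other feature of a 6-month group cannot be told apart. When the mean of the WT columns of 4 and 9 months took the place of the WT 6-month column, 2047 genes were higher and 1742 lower. Of the genes that passed the limma test and are described below, Zbtb16, Neat1, Prpf4b, Nog, Dhrs13 and Cacng6 had the opposite sign under this reference, as did most of those without a known product. The median of the ependymal list turned as well, to 1.04.

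The transgene labels were checked first. App, the amyloid precursor protein gene, was at 455 FPKM in WT and 932 FPKM in AD, 1.99 times higher. The WT value was below and the AD value above all 8 columns of other ages, where WT ranged from 587 to 670 and AD from 609 to 819. App was too abundant to be resolved by library, and the transgene is a chimera of mouse and human sequence whose assignment to the mouse gene was not tested. Prnp, whose promoter drives the transgenes, was at 1139 FPKM in WT and 1177 FPKM in AD. Of the 19 kept genes of APP processing, 1 was higher and 1 was lower. The lower one was Bace2, a protease that cuts APP away from the β-site, with 4.52, 4.63 and 5.13 FPKM in WT against 3.47, 2.44 and 1.71 FPKM in AD (limma log2 difference -0.94 ± 0.23 SE, adjusted p = 0.085).

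The cells carried the astrocyte markers in both genotypes, beside those of other cells. All 22 homeostatic astrocyte genes were kept and none was at 0. Their group values summed to 5399 FPKM in WT and 3839 FPKM in AD. The 16 resolved ones summed to 1369, 1130 and 1344 FPKM in WT and to 1546, 903 and 1102 FPKM in AD, with AD library A above every WT library and the other AD libraries below them. The 19 myelin and oligodendrocyte markers summed to 15780 FPKM in WT and 21630 FPKM in AD. The summed FPKM of the myelin list was therefore above that of the homeostatic list in both groups. Most of the myelin sum came from unresolved genes, since the 10 resolved ones summed to 740 to 861 FPKM in WT libraries. Such sums depend on which genes are listed and do not measure the RNA that each cell type gave. In bulk samples fewer cells of a type and less RNA per cell cannot be told apart.

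Genes of the glucocorticoid response were higher as a group. Of 16 such genes 12 were higher and 1 was lower, with a median log2 difference of 1.0 against -0.04 over all genes. Against the mean of WT at 4 and 9 months the median of the list was 0.14. Zbtb16, a transcriptional repressor induced by glucocorticoids, was at 0.385, 0.405 and 0.372 FPKM in WT and at 2.83, 2.57 and 2.61 FPKM in AD. Every AD library lay far above every WT library, and Zbtb16 rose by 2.5 ± 0.13 (SE) on the log2 scale (limma adjusted p = 0.00477). Per1, a clock repressor that glucocorticoids also induce, was at 0.677, 0.586 and 0.639 FPKM in WT against 2.87, 2.92 and 3.02 FPKM in AD. Here too the groups were well apart, and Per1 rose by 2.04 ± 0.12 (adjusted p = 0.00708). These were the 2 members of the list that passed the test over 6 libraries.

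Sgk1, a kinase of ion transport whose transcription is switched on by glucocorticoids, showed the largest difference of the list. Its group value was 22.6 FPKM in WT and 459 FPKM in AD, 19.7 times higher. In WT the libraries were at 24.6, 25.5 and 17.7 FPKM, whereas the AD libraries could not be resolved, so the spread in AD is unknown. The AD columns of 2, 4, 9 and 12 months were at 22.8, 94, 66.8 and 429 FPKM, and the WT columns of these ages at 24.5, 85.2, 30.7 and 72.9 FPKM. The AD value at 6 months was the highest of the 10 astrocyte columns, with the AD value at 12 months close to it.

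A promoter of Sgk1 is shown because it holds the palindrome bound by the glucocorticoid receptor. The palindrome is GNACA, then any 3 bases, then the reverse complement TGTNC, and it was searched in the 250 bases before each of 32851 RefSeq gene starts (GRCm38.p6). It was found in 0.387% of them. Among 15 genes of the list with such a window, Sgk1 and Mt1 held a match. Sgk1 has 6 starts in the table, and 1 of them has the match, which begins 188 bases before the start. The stretch is chr10:21993640-21993889 on the plus strand, and capitals mark the match.
Sgk1 promoter: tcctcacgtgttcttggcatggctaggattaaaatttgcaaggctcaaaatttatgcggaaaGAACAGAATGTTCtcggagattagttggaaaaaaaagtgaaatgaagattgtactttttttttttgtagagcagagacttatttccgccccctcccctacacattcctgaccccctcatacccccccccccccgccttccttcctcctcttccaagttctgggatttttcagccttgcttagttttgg

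Other members of the list were higher with a wider spread among AD libraries. Cdkn1a, the cell cycle inhibitor p21, was at 15.7, 21.2 and 18.5 FPKM in WT and at 44.1, 57.8 and 107 FPKM in AD (limma log2 difference 1.81 ± 0.33, adjusted p = 0.0641). Its AD libraries differed among themselves, but all lay above WT. Nfkbia, the inhibitor that holds NF-κB in the cytoplasm, was at 68.2, 80.7 and 72 FPKM in WT and at 163, 155 and 262 FPKM in AD (adjusted p = 0.0612). Fkbp5, a co-chaperone that lowers the affinity of the glucocorticoid receptor, was at 0.312, 0.351 and 0.389 FPKM in WT and at 0.692, 0.750 and 0.952 FPKM in AD (adjusted p = 0.0779). Fkbp5 was low in both groups and was kept only through its AD value, and its libraries did not overlap. Tsc22d3, which encodes the glucocorticoid-induced protein GILZ, was at 47.1 FPKM in WT and 101 FPKM in AD as group values. Arrdc2 was at 7.82, 7.94 and 7.1 FPKM in WT against 12.8, 17.9 and 41.8 FPKM in AD, with AD library C far above the rest.

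The metallothioneins of the same list were within 0.5 or lower. Mt1, a metal-binding protein, was at 1678 FPKM in WT and 1750 FPKM in AD. Mt2, a close relative, was at 13.1, 12.5 and 14.6 FPKM in WT and at 18.1, 9.94 and 11 FPKM in AD. Mt3, the brain form, was at 365, 364 and 443 FPKM in WT and at 396, 186 and 257 FPKM in AD. For Mt3 AD library A lay inside the WT range and the other AD libraries below it. The groups of Mt2 and Mt3 overlapped. By group value Mt3 was the 1 lower gene of the list.

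Among the other ages, WT astrocytes at 4 months had Zbtb16 at 5.65 FPKM and Per1 at 3.47 FPKM, above the AD values at 6 months. WT at 6 months was the lowest of the 10 columns for both genes. Against the mean of WT at 4 and 9 months the Zbtb16 difference turned to -0.65. In the 30 astrocyte libraries, the 6-month difference of Zbtb16 exceeded the mean difference of the other ages by 2.59 (limma adjusted p = 0.00183) and that of Per1 by 1.88 (adjusted p = 0.00312). The time of day at which brains were taken is not given in the sources used here.

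The other clock genes showed a mixed pattern. Of 18 clock genes 5 were higher and 1 was lower, with a median of 0.06. Per2, another clock repressor, was at 0.339, 0.349 and 0.535 FPKM in WT and at 1.07, 0.769 and 0.751 FPKM in AD (adjusted p = 0.0949). Its groups did not overlap, and it was kept only through its AD value. Nr1d1, which encodes the repressor REV-ERBα, was the lower one, with 21, 15.1 and 18.6 FPKM in WT and 17.1, 8.3 and 10.0 FPKM in AD. AD library A lay inside the WT range. Arntl, the clock activator BMAL1, was at 3.44, 3.52 and 3.59 FPKM in WT and at 3.81, 1.85 and 2.24 FPKM in AD, with AD library A above the WT libraries and the others below them.

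Of 21 immediate-early genes, which respond to stimuli within minutes, 6 were higher and 1 was lower (median 0.16). Nr4a2, an orphan nuclear receptor, was at 0.589, 0.607 and 0.392 FPKM in WT and at 2.05, 1.28 and 2.17 FPKM in AD (adjusted p = 0.0612). Fos, a subunit of AP-1, was at 136, 118 and 131 FPKM in WT and at 106, 91.4 and 134 FPKM in AD. Fos overlapped between genotypes, unlike Nr4a2. Ier5, a regulator of heat-shock factor, was the lower member, with 6.18, 6.49 and 6.92 FPKM in WT against 4.2, 3.57 and 3.63 FPKM in AD (adjusted p = 0.0567). Genes outside the lists also differed by a large amount. Arl4d, a small GTPase, was at 19, 22.7 and 15.2 FPKM in WT and at 50.6, 74.9 and 160 FPKM in AD. Depp1, a target of FOXO factors that regulates autophagy, was at 7.45, 15.7 and 9.61 FPKM in WT and at 63.9, 24.5 and 60.5 FPKM in AD. Both were above WT in all AD libraries, at adjusted p values of 0.0658 and 0.0689.

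**Figure D2:**
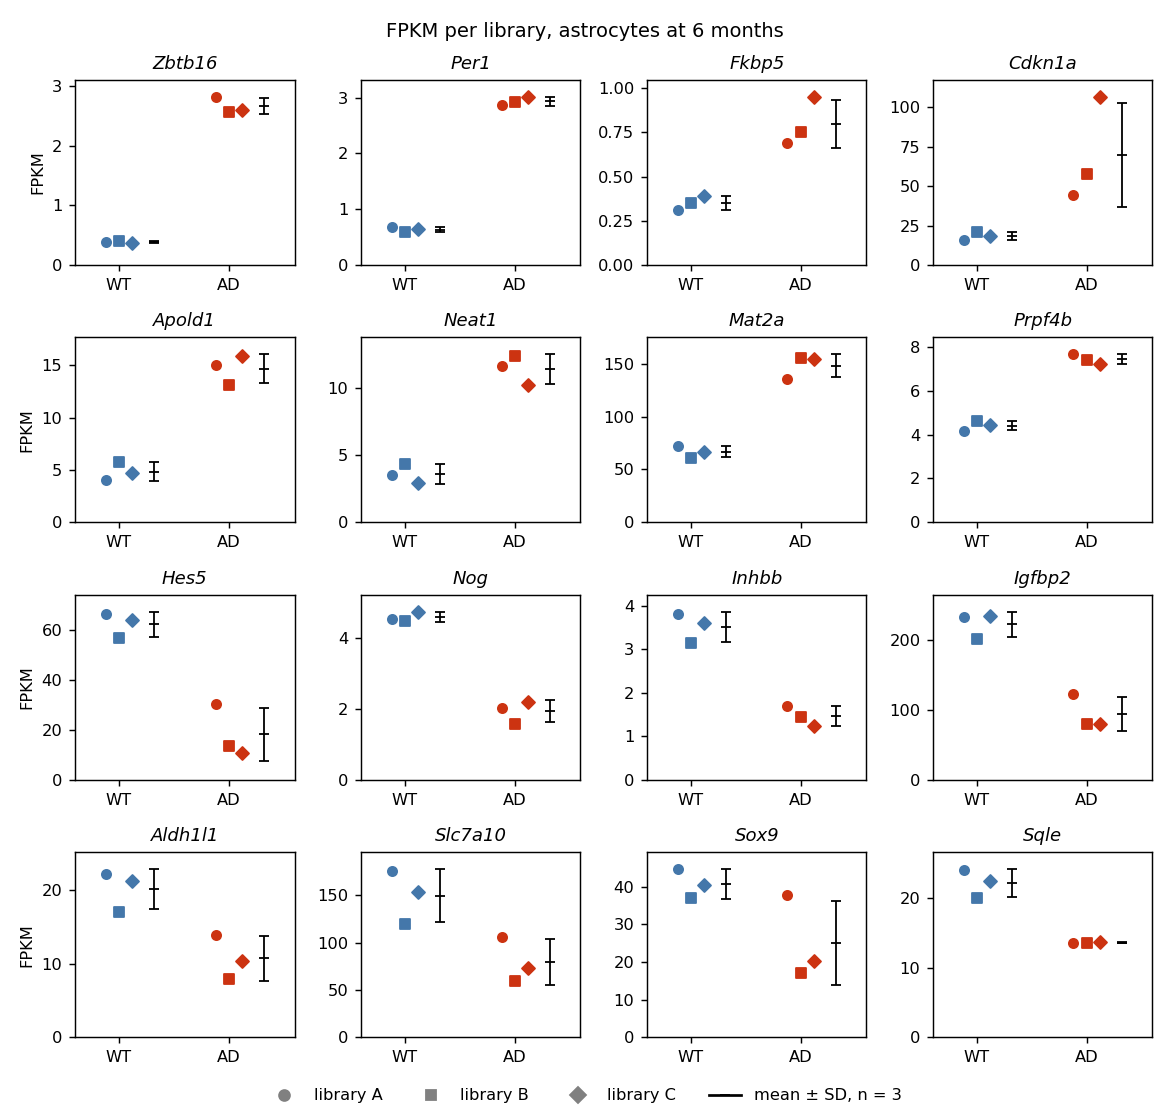
FPKM (y axis, from 0) of 16 genes in each WT and AD library at 6 months, with 1 symbol for each library and the mean ± SD of 3 libraries beside them. Zbtb16, Per1, Neat1 and Mat2a were even in AD, whereas AD library A stood closer to WT than libraries B and C for Hes5, Sox9 and Aldh1l1.

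Some RNAs that stay in the nucleus, or that regulate splicing, were also higher. Neat1, the scaffold RNA of paraspeckles, was at 3.54, 4.36 and 2.94 FPKM in WT and at 11.7, 12.4 and 10.2 FPKM in AD. All AD libraries lay above WT, and Neat1 rose by 1.64 ± 0.16 on the log2 scale (limma adjusted p = 0.0271). Mat2a, which makes the methyl donor S-adenosylmethionine and whose transcript is partly held in the nucleus, was at 71.7, 61.3 and 66.9 FPKM in WT and at 136, 155 and 154 FPKM in AD. It rose by 1.15 ± 0.1 (adjusted p = 0.0271). Prpf4b, a kinase of the spliceosome, was at 4.18, 4.61 and 4.44 FPKM in WT and at 7.66, 7.38 and 7.21 FPKM in AD, and it rose by 0.73 ± 0.09 (adjusted p = 0.0421). All 3 genes had close levels in the AD libraries. Malat1, a nuclear speckle RNA, was at 231 FPKM in WT and 621 FPKM in AD as group values.

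Chromatin and splicing genes were higher about as often as all genes were (9.4%), and none was lower, beside 11.4% of all genes. Of 34 chromatin modifiers 3 were higher (8.82%) and none was lower. The AD libraries lay above the WT libraries in 24 of 34 (70.6%, beside 16.9% of all genes) and below in none (beside 16.4%). Their median was 0.28. Tet3, which oxidizes methylcytosine, was at 1.12, 1.09 and 0.904 FPKM in WT and at 1.66, 1.98 and 1.4 FPKM in AD (adjusted p = 0.0969). Chd6, a chromatin remodeler, was at 2.27, 2.0 and 1.77 FPKM in WT and at 3.67, 2.95 and 2.64 FPKM in AD (adjusted p = 0.0925). Neither gene overlapped between genotypes. Of 25 splicing regulators 3 were higher (12%) and none lower, with a median of 0.18. Tra2a, an activator of exon inclusion, was at 2.92, 3.21 and 3.24 FPKM in WT and at 5.39, 4.99 and 4.08 FPKM in AD (adjusted p = 0.0689), and Son, a speckle protein, was at 16.2 and 28.9 FPKM as group values. The WT 6-month column was below all other ages in 31 of the 34 chromatin genes, and the AD 6-month column in 20. Against the mean of WT at 4 and 9 months the differences of Neat1, Malat1, Prpf4b, Tra2a, Chd6 and Tet3 turned negative, and the list medians were -0.47 for chromatin and -0.01 for splicing.

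Gene length moved with these results. The median log2 difference was -0.11 in the shortest of 5 equal classes of genes by length and 0.15 in the longest. It was 0.04 in the class with the lowest GC content and -0.11 in that with the highest. With the trend in length and GC removed, 1193 genes were higher and 1663 lower. The chromatin median then was 0.05 in place of 0.28 and the splicing median 0.06 in place of 0.18, and the medians of the other 53 lists stayed within their limits.

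Genes of the mature, homeostatic astrocyte were lower as a group. Of 22 such genes 17 were lower and none was higher, and their median was -0.7. Against the mean of WT at 4 and 9 months the median was -0.16. Of 16 resolved genes the AD libraries lay below WT in 6 (37.5%, beside 16.4% of all genes) and above in none (beside 16.9%). Aldh1l1, a folate enzyme that marks astrocytes, was at 22.2, 17 and 21.2 FPKM in WT and at 13.9, 7.91 and 10.4 FPKM in AD (limma log2 difference -0.94 ± 0.2, adjusted p = 0.0757). The groups did not overlap, and AD library A was the nearest to WT. Mlc1, an endfoot membrane protein, was at 239, 185 and 221 FPKM in WT and at 168, 77.2 and 98.6 FPKM in AD (adjusted p = 0.0973). Sox9, the transcription factor of astrocytes, was at 44.6, 36.9 and 40.4 FPKM in WT and at 37.9, 17.1 and 20.3 FPKM in AD. For Sox9 AD library A lay inside the WT range, so the groups overlapped (adjusted p = 0.141). S100b, a calcium-binding protein, was at 175, 202 and 183 FPKM in WT and at 134, 121 and 110 FPKM in AD (adjusted p = 0.0605).

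Some members were known only as group values. Gpr37l1, an orphan receptor of astrocytes, was at 1105 FPKM in WT and 540 FPKM in AD, 2.11 times lower. Slc1a3, the glutamate transporter GLAST, was at 252 and 139 FPKM, and Aqp4, the water channel of the endfeet, at 72.7 and 41 FPKM. Not every member followed. Glul, glutamine synthetase, was at 601 FPKM in WT and 801 FPKM in AD, and Kcnj10, the potassium channel Kir4.1, was at 18.9, 17.3 and 17.9 FPKM in WT and at 18.2, 36.6 and 21 FPKM in AD. The Kcnj10 mean was raised by AD library B. With all 6 libraries, none of the 16 resolved homeostatic genes passed the limma threshold. Without AD library A, 11 of them passed it in the lower direction and none in the higher, against a background of 12.2% and 8.47%. That library had the highest sum over these genes, so this count depends on leaving it out.

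The transporters showed the same direction. Of 28 transporter and channel genes, some of them also on the homeostatic list, 15 were lower and none was higher (median -0.54, or -0.29 against WT at 4 and 9 months). Slc7a10, which carries D-serine and glycine, was at 176, 120 and 153 FPKM in WT and at 106, 59.2 and 72.8 FPKM in AD (adjusted p = 0.0844). Slc1a4, a neutral amino acid carrier, was at 40.3, 30.6 and 39.6 FPKM in WT and at 22.2, 13 and 16.5 FPKM in AD (adjusted p = 0.0641). Both were separated between genotypes, but most of the list was not. Of 26 resolved genes the AD libraries lay below WT in 7 (26.9%, beside 16.4% of all genes) and above in none (beside 16.9%). The WT 6-month column was above all other ages in 14 of the 22 homeostatic genes and the AD column below them in 4. Over all 1679 lower genes these counts were 1314 and 146, so this is no trait of the homeostatic genes alone. The shares cannot be set side by side, since the 22 include genes that were not lower. Aldh1l1, for example, was at 20.1 FPKM in WT at 6 months, at 9.96 to 13.9 FPKM in WT at other ages and at 10.4 to 13.2 FPKM in AD at all 5 ages. Against WT at 4 and 9 months the differences of Mlc1, Aldoc and S100b were 0.09, 0.1 and 0.08.

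Genes of Notch, Wnt and BMP signalling, which keep astrocytes and neural stem cells in their state, were lower in part. Of 22 genes of the Notch, sonic hedgehog and Wnt pathways 8 were lower and 1 was higher (median -0.24). Hes5, a repressor that Notch switches on directly, was at 66.5, 56.7 and 63.9 FPKM in WT and at 30.2, 13.7 and 10.7 FPKM in AD (limma log2 difference -1.92 ± 0.34, adjusted p = 0.0641). All AD libraries were below WT, with AD library A the highest of them. Fzd9, a Wnt receptor, was at 19.6, 14.9 and 17 FPKM in WT and at 7.82, 5.01 and 6.85 FPKM in AD (adjusted p = 0.0567). Hey1, another Notch target, was at 11.5, 11.8 and 11.7 FPKM in WT and at 10.6, 5.03 and 4.66 FPKM in AD (adjusted p = 0.126). For Hey1 the AD libraries B and C carried nearly all of the difference. Notch3, a receptor of mural cells, was the higher one, with 1.17, 1.5 and 1.03 FPKM in WT and 2.81, 1.68 and 1.09 FPKM in AD, and its groups overlapped.

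The Hes5 promoter is shown because RBPJ, the DNA-binding partner of Notch, binds the core TGGGAA. These letters were found on either strand in 21.6% of the 32851 windows, so a match is common. The Hes5 window had 2 matches, which begin 226 and 82 bases before the start. It is chr4:154960673-154960922 on the plus strand (GRCm38.p6), from RefSeq, with the matches in capitals.
Hes5 promoter: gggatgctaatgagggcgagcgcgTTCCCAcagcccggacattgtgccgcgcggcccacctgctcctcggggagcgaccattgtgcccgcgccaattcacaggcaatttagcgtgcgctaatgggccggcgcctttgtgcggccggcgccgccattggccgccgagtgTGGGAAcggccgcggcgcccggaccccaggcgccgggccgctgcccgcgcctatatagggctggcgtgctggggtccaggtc

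Secreted antagonists and ligands were among the genes that fell. Nog, which encodes the BMP antagonist noggin, was at 4.53, 4.47 and 4.74 FPKM in WT and at 2.03, 1.58 and 2.18 FPKM in AD, and it fell by 1.22 on the log2 scale (SE 0.14, limma adjusted p = 0.0413). Inhbb, the subunit of activin B, was at 3.81, 3.14 and 3.6 FPKM in WT and at 1.7, 1.45 and 1.25 FPKM in AD (adjusted p = 0.0421). Both were low and even within each genotype. Bmp7, a BMP ligand, was at 7.53, 6.8 and 7.98 FPKM in WT and at 4.75, 3.08 and 3.44 FPKM in AD (adjusted p = 0.0612), and Wnt7a, a Wnt ligand, at 14.3, 10.9 and 14.2 FPKM against 8.54, 3.89 and 6.08 FPKM (adjusted p = 0.0817). Neither reached the threshold, although their groups did not overlap. Of 16 growth factors of glia 6 were lower and 1 was higher (median -0.34, or -0.05 against WT at 4 and 9 months).

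Markers of Bergmann glia and of regional astrocytes, and of neural progenitors, lay in the same direction. Of 21 regional markers 12 were lower and 1 was higher (median -0.53), and of 12 progenitor markers 4 were lower and none higher (median -0.37). Against WT at 4 and 9 months these medians were -0.09 and -0.06. Of 18 resolved regional markers the AD libraries lay below WT in 6 (33.3%, beside 16.4% of all genes) and above in none (beside 16.9%). Gdf10, a TGF-β family ligand of Bergmann glia, was at 11.4, 8.4 and 8.88 FPKM in WT and at 4.97, 2.74 and 4.3 FPKM in AD (adjusted p = 0.0641). The WT 6-month column was above all other ages in 11 of the 21 regional markers and the AD column below them in 3. Fabp7 and Igfbp2 are on neither list. Fabp7, a fatty acid carrier of radial and Bergmann glia, was at 268, 230 and 279 FPKM in WT and at 171, 63.7 and 75.2 FPKM in AD (adjusted p = 0.079). Igfbp2, a binding protein of insulin-like growth factors, was at 232, 201 and 233 FPKM in WT and at 122, 79.2 and 79.95 FPKM in AD (adjusted p = 0.0567). Gdf10, Fabp7 and Igfbp2 were all separated between genotypes. Igfbp2 was at 222 FPKM in WT at 6 months and at 53.8 to 117 FPKM in the 8 columns of other ages.

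**Figure D3:**
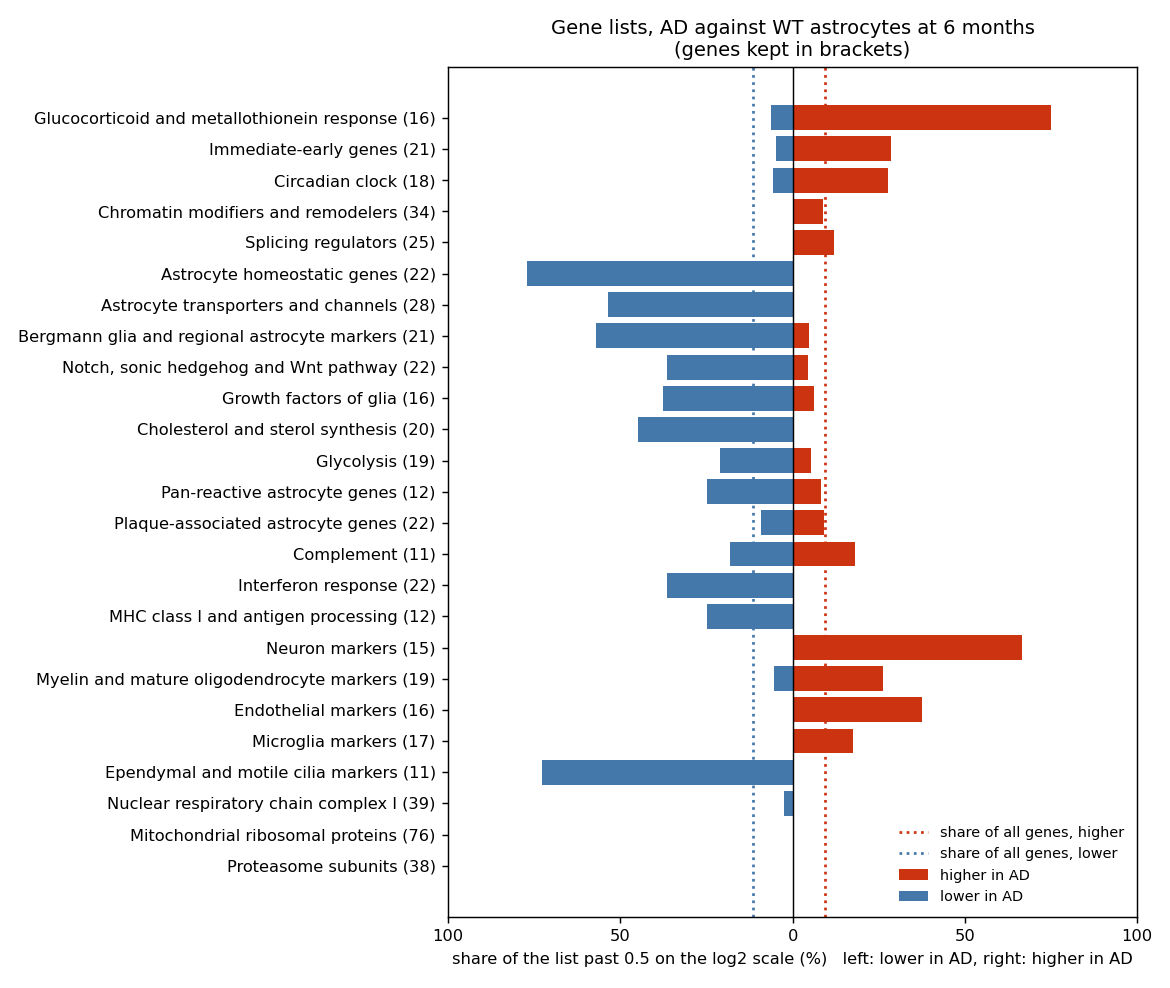
Share of each gene list (x axis, %) that was higher in AD (right) or lower in AD (left) by more than 0.5 on the log2 scale, with the number of kept genes in brackets. Dotted lines mark the shares over all genes, 9.4% and 11.4%. The glucocorticoid list had 12 of 16 genes higher and the homeostatic list 17 of 22 lower, while the mitochondrial ribosome and the proteasome had none in either direction.

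Astrocytes are a main source of brain cholesterol. Of 20 genes of sterol synthesis 9 were lower (45%, beside 11.4% of all genes) and none was higher (beside 9.4%), with a median of -0.37. The AD libraries lay below WT in 11 of 19 resolved genes (57.9%, beside 16.4% of all genes) and above in none (beside 16.9%). Sqle, squalene epoxidase, was at 24.1, 20.1 and 22.4 FPKM in WT and at 13.5, 13.6 and 13.7 FPKM in AD (limma log2 difference -0.71 ± 0.09, adjusted p = 0.0567). Fdft1, squalene synthase, was at 91.6, 67.9 and 81.6 FPKM in WT and at 50.6, 48.7 and 50.6 FPKM in AD (adjusted p = 0.0641). Here AD library A did not differ from the other AD libraries. Msmo1, a methylsterol oxidase, was at 120 FPKM in WT at 6 months, at 44.7 to 66 FPKM in WT at other ages and at 75.3 FPKM in AD at 6 months. Against WT at 4 and 9 months the list median turned to 0.07.

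Of the 17 kept genes of apolipoproteins and cholesterol efflux 4 were lower and none higher (median -0.12). Clu, the chaperone and apolipoprotein clusterin, was at 1864 FPKM in WT and 1002 FPKM in AD, 1.92 times lower. The WT value was above all 8 columns of other ages, which ranged from 593 to 1134 FPKM. Lcat, which esterifies cholesterol in brain lipoproteins, was at 127, 101 and 126 FPKM in WT and at 67.8, 59.2 and 68.1 FPKM in AD (adjusted p = 0.0567). Apoe, the main apolipoprotein of the brain, was at 8173 and 6291 FPKM, which is inside the 0.5 limit.

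Reactive astrocyte genes showed no single direction. Of 12 pan-reactive genes 1 was higher and 3 were lower, with a median of 0.17 and a summed group value of 182 FPKM in WT and 223 FPKM in AD. By library the sums were 158, 200 and 187 FPKM in WT and 284, 185.5 and 199.9 FPKM in AD. The higher AD sum thus came from AD library A, and the other AD libraries lay inside the WT range. Of 11 A1 genes 1 was higher (median -0.12), and of 7 A2 genes 2 were lower (median -0.13). Of 22 genes reported near plaques 2 were higher and 2 lower, with a median of -0.15. Gfap was at 9.63, 10.4 and 10.1 FPKM in WT and at 8.43, 3.9 and 4.87 FPKM in AD (limma log2 difference -0.88 ± 0.25, adjusted p = 0.105). All AD libraries lay below WT, and AD library A was again the nearest. Serpina3n, a protease inhibitor of reactive astrocytes, was at 9.34, 9.48 and 11.1 FPKM in WT and at 10.5, 10.6 and 13.9 FPKM in AD, and its groups overlapped. C4b, complement component 4, was at 6.46, 5.85 and 6.51 FPKM in WT and at 9.33, 7.52 and 10.8 FPKM in AD (adjusted p = 0.1). The C4b groups did not overlap, but their difference did not pass the test. Osmr, the oncostatin M receptor, was at 0.529, 0.541 and 0.583 FPKM in WT and at 1.02, 0.487 and 0.544 FPKM in AD, so its higher mean came from AD library A.

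Immune genes were lower or mixed. Of 22 interferon response genes 8 were lower (36.4%) and none was higher (median -0.31). Of 12 genes of MHC class I presentation 3 were lower (25%) and none was higher (median -0.36). Over all genes 11.4% were lower and 9.4% higher, and with so few class I genes 3 is a small number. In 6 of the 12 class I genes all AD libraries lay below WT (50%, beside 16.4% of all genes), and in none above (beside 16.9%). The interferon and class I medians were -0.33 and -0.35 against WT at 4 and 9 months. Ifi27l2a, an interferon-induced gene, was at 36.1, 32.3 and 30.5 FPKM in WT and at 9.4, 24.6 and 7.88 FPKM in AD (adjusted p = 0.104). H2-K1, a class I heavy chain, was at 63.1, 60.1 and 64.5 FPKM in WT and at 58.6, 33.3 and 27.1 FPKM in AD (adjusted p = 0.137). The AD libraries were below WT for both, with a different library nearest to WT in each case. Ccl2, a monocyte chemokine, was at 2.46, 1.96 and 3.41 FPKM in WT and at 2.36, 10.5 and 2.64 FPKM in AD, and without AD library B its difference turned to -0.07. Il33, an alarmin of oligodendrocytes and astrocytes, was at 263, 244 and 234 FPKM in WT and at 244, 361 and 369 FPKM in AD, and its groups overlapped. Of the 13 heat-shock genes 3 were higher and none lower. Cryab, a small heat-shock protein of glia, was at 2144 and 3609 FPKM as group values.

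Markers of other cells varied between libraries, not always by genotype, and their part in the results above was not tested. Of 15 kept neuron markers 10 were higher and none was lower (median 0.87, or 0.37 against WT at 4 and 9 months). The summed FPKM of these markers was 36.5 to 40.9 in WT libraries and 51.4, 52.8 and 81.1 in AD libraries A, B and C. Snap25, a synaptic vesicle fusion protein, was at 5.9, 5.6 and 5.0 FPKM in WT and at 11.7, 8.03 and 17.6 FPKM in AD (adjusted p = 0.089). Syt1, the calcium sensor of vesicle release, was at 0.915, 0.769 and 0.757 FPKM in WT and at 2.17, 1.56 and 2.55 FPKM in AD (adjusted p = 0.0612). Both were above WT in every AD library.

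Oligodendrocyte RNA differed mainly in AD libraries B and C. Of 19 myelin markers 5 were higher and 1 was lower (median 0.41). The 10 resolved ones summed to 861, 773 and 740 FPKM in WT and to 781, 1392 and 1130 FPKM in AD. Myrf, the transcription factor of myelination, was at 10.3, 8.54 and 8.29 FPKM in WT and at 10.8, 22.3 and 16.4 FPKM in AD (adjusted p = 0.133). AD library A was close to WT, and the others were above it. Klk6, a protease of mature oligodendrocytes, went the other way, with 112, 109 and 105 FPKM in WT and 41.7, 91.5 and 62.9 FPKM in AD.

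Vessel and blood RNA varied between single libraries. The resolved endothelial markers summed to 646, 1130 and 886 FPKM in WT and to 1529, 936 and 994 FPKM in AD, with AD library A the highest. Of 16 endothelial markers 6 were higher and none lower (median 0.36). Cldn5, the tight junction protein of brain vessels, was at 110, 220 and 159 FPKM in WT and at 237, 126 and 141 FPKM in AD. For the endothelial list the direction turned against WT at 4 and 9 months, with a median of -1.29. The mural markers summed to 209, 299 and 242 FPKM in WT and 559, 277 and 266 FPKM in AD. Acta2, smooth muscle actin, was at 50.1, 93.1 and 56.5 FPKM in WT and at 227, 129 and 128 FPKM in AD (adjusted p = 0.0815). Hba-a1, the α-globin of red cells, was at 18.3, 42.4 and 99.2 FPKM in WT and at 62.3, 234 and 239 FPKM in AD, and these groups overlapped. Microglia markers were nearly even, at 66.9 to 75.9 FPKM in WT and 66 to 88.4 FPKM in AD, although Tyrobp, a microglial signalling adaptor, was at 2.59, 2.93 and 3.08 FPKM in WT and at 5.31, 5.23 and 8.6 FPKM in AD (adjusted p = 0.0685).

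Ependymal genes, of the ciliated cells that line the ventricles, stood out against the other ages. Of 11 kept ependymal markers 8 were lower at 6 months and none was higher (median -0.79), whereas their median AD minus WT difference was 0.72, 1.02, 0.61 and 0.75 at 2, 4, 9 and 12 months. All 11 differed between 6 months and the mean of the other ages in the 30-library fit (limma adjusted p under 0.05), against a background of 7.84% of genes in this direction. Tmem212, a gene of ependymal cells, was at 310, 360 and 365 FPKM in WT and at 309, 166 and 124 FPKM in AD. AD library A was near the WT libraries. In the other WT columns Tmem212 was at 48.3 to 118 FPKM and in the other AD columns at 75.2 to 251 FPKM. The ependymal markers summed to 475 to 570 FPKM in WT libraries and to 481, 261 and 199 FPKM in AD libraries.

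Some of the largest differences came from 1 library. Chga, which encodes the secretory granule protein chromogranin A, was at 1.22, 1.08 and 1.17 FPKM in WT and at 23.4, 1.17 and 2.31 FPKM in AD. It was high in AD library A alone, as was mt-Atp8, a mitochondrial gene that overlaps its neighbour, with 506 FPKM there and 11.7 to 26.7 FPKM in the other 5 libraries. Scgb3a1, a secretoglobin of airway epithelium, was at 39.4 FPKM in AD library C and at 1.79 to 2.88 FPKM elsewhere. Without AD library A the difference of mt-Atp8 turned to -0.14.

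Genes with near-identical copies in the genome are uncertain, since reads may be split between copies. Rps3a1, a ribosomal protein with many pseudogenes, was at 24.7, 22.2 and 22.1 FPKM in WT and at 21.4, 104 and 103 FPKM in AD. The pseudogene Lamr1-ps1 was at 0, 0.160 and 0.0535 FPKM in WT and at 3.13, 6.08 and 2.82 FPKM in AD (limma adjusted p = 0.0271). Mrpl48-ps was at 26, 18.6 and 31 FPKM in WT and fell to 5.25, 4.81 and 6.41 FPKM in AD (adjusted p = 0.0271). Klk1b22, of a kallikrein gene cluster, was at 6.37, 4.68 and 5.52 FPKM in WT and at 0.415, 0 and 0 FPKM in AD (adjusted p = 0.0567). The copies of these genes were not compared. Cacng6, a calcium channel subunit, was at 1.44, 0.917 and 1.96 FPKM in WT and fell to 0.0768, 0.0271 and 0.0814 FPKM in AD (adjusted p = 0.0413).

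The remaining genes that passed the test were mostly non-coding. Apold1, an early response gene of vessels, was at 4.04, 5.8 and 4.72 FPKM in WT and rose to 15.1, 13.1 and 15.9 FPKM in AD (adjusted p = 0.0271). Dhrs13, a short-chain dehydrogenase, was at 9.9, 8.74 and 9.44 FPKM in WT and fell to 5.38, 5.04 and 5.04 FPKM in AD (adjusted p = 0.0322). The others that rose were Gm44866, Gm26930, Mir7052, C030006N10Rik, Gm13905, Gm19445, C230066G23Rik, Mir3091, Gm22228 and a gene known only as ENSMUSG00000095041, and Gm3654 was the other that fell. These 23 genes were named because they passed the test, after their values were seen. Cdkn1a, Tsc22d3, Arrdc2, Mt2, Per2, Sox9, Mlc1, S100b, Hey1 and Snap25 were likewise chosen after their values were seen, as members of their lists.

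The machinery of respiration and protein turnover differed by less than 0.5 in nearly every gene. Of 39 nuclear genes of complex I none was higher and 1 was lower (median -0.15), and none of 25 genes of complexes II to IV, 16 of ATP synthase, 76 of the mitochondrial ribosome or 38 of the proteasome passed 0.5. Nevertheless the AD libraries lay below WT in 45 of the 76 mitochondrial ribosomal genes (59.2%, beside 16.4% of all genes) and above in 1 (1.32%, beside 16.9%). Mrps14, one of them, was at 39.6, 41.7 and 43.1 FPKM in WT and at 36.1, 29.6 and 31.2 FPKM in AD (adjusted p = 0.0876). Both 6-month columns were above all other ages in most of these genes, WT in 75 and AD in 63 of the 76, and both in 36 of 39 for complex I, counted apart. Against the mean of WT at 4 and 9 months the list medians turned from negative to positive. They were 0.38 for the mitochondrial ribosome, 0.48 for complex I, 0.41 for complexes II to IV, 0.45 for ATP synthase and 0.41 for the proteasome. In complex I the AD libraries lay below WT in 18 of 37 resolved genes (48.6%) and above in 2 (5.41%). Ndufa3, one of these 2, lay the other way, at 121, 119 and 126 FPKM in WT and 142, 163 and 179 FPKM in AD (adjusted p = 0.109).

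Genes that the study singled out in astrocytes, which it chose on these libraries among others, were counted in the same way. Of the 193 kept genes that it lists as rising with age 21 were higher (10.9%) and 41 lower (21.2%), beside 9.4% and 11.4% of all genes, with a median of -0.13. Of these genes 180 were resolved in the 6 libraries. In the 30-library fit 22 of them had a lower difference at 6 months than at the other ages and 5 a higher one. Over all genes tested, 7.84% had a lower and 6.57% a higher difference. Of 146 that the study lists as falling 8 were higher (5.48%) and 12 lower (8.22%), with a median of 0.06. Since the study chose these genes on these libraries, their counts are no independent evidence of a direction. Timp4, an inhibitor of metalloproteases, was at 51, 47.2 and 58 FPKM in WT and at 38.6, 20.5 and 29.4 FPKM in AD (adjusted p = 0.0894). Cst3, cystatin C, was at 9632 and 7450 FPKM as group values. The Timp4 groups did not overlap.

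**Figure D4:**
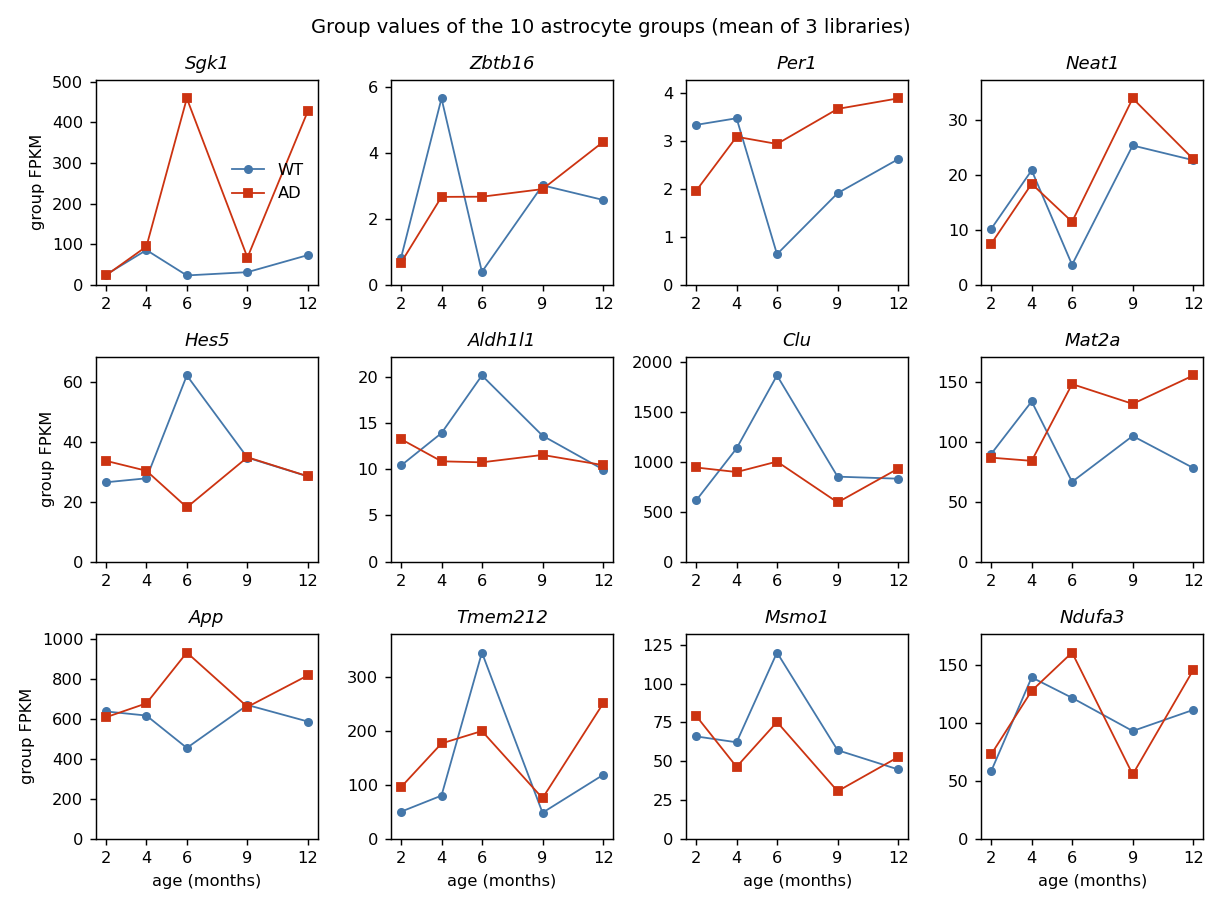
Group FPKM (y axis, from 0) of 12 genes by age in months (x axis) in WT and AD astrocytes, each point the mean of 3 libraries. WT at 6 months is the lowest of the 10 columns for Zbtb16, Per1, Neat1 and Mat2a and the highest for Hes5, Aldh1l1, Clu, Tmem212 and Msmo1, whereas AD at 6 months is the highest for Sgk1 and App.

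With all 30 astrocyte libraries in 1 limma fit, which takes its spread from all ages, 769 genes were called higher at 6 months (5.36%) and 746 lower (5.2%) of 14359. Of the glucocorticoid genes 8 of 13 resolved were called higher and none lower, of the homeostatic genes 7 of 16 were called lower, and of the sterol genes 8 of 19 were called lower. The 6-month difference differed from the mean difference of the other 4 ages in 943 genes upward (6.57%) and in 1126 genes downward (7.84%). Across genes the 6-month difference had a Pearson correlation of -0.23, 0.04, 0.15 and -0.19 with the differences at 2, 4, 9 and 12 months and of 0.17 with that of microglia at 6 months. These are descriptions across genes, which share libraries within each age.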

How the data were processed

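Astrocyte RNA of 3 WT and 3 AD mice at 6 months was amplified, sequenced as paired reads and counted by the authors, who deposited 1 FPKM value for each gene and group. The methods name HISAT2 and featureCounts, whereas the submitters' processing notes name Bowtie 0.12.2 and mm8, and which applies to the table is not known. Whole fragments of each library were recovered from the 15 digits of the deposited FPKM values, for group totals of up to 60000 fragments. Replicates are separate mice.

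Columns were scaled by size factors over the 10 astrocyte columns, and differences were taken on log2(FPKM + 0.1), which understates changes of low genes. Genes of at least 0.5 FPKM in either column were kept. Moderated tests used limma 3.58.1 (R 4.3.3, trend and robust) on log2 values of the 6 libraries, with Benjamini-Hochberg adjustment over all genes. The planned comparison had no test, as 1 value per group was foreseen, and the tests were added after the data were seen. Tests were tried on simulated data.

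Named genes were the highest and lowest members and the most abundant member of each list, the 10 highest and 10 lowest coding genes, the label checks, and genes the study names, with exceptions stated. The members and lists were chosen with earlier results of these data known. Alternatives covered scaling, pseudocount, filter, threshold, length and GC trend, reference column and left-out libraries. Promoters came from RefSeq (GRCm38.p6). Some results on single genes are not reported here.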

Additional observations from a re-analysis of the deposited data

Results flagged for a closer look

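The AD minus WT difference at 6 months differed from the mean of the differences at 2, 4, 9 and 12 months in 943 genes upward and 1126 genes downward, by limma over all 30 astrocyte libraries with an adjusted p under 0.05. These were 6.57% and 7.84% of the genes tested. The genes below are those named in the report that were among them, and many were named for a large difference at 6 months, so their number says nothing by itself. Values are on the log2 scale, 6 months minus the mean of the other ages. The difference at 6 months exceeded that of the other ages for Zbtb16 by 2.59, Per1 by 1.88, Cdkn1a by 2.03, Nfkbia by 1.32, Fkbp5 by 1.24, Arrdc2 by 1.11, Per2 by 0.81 and Nr4a2 by 1.73. A larger difference at 6 months was also found for Arl4d by 1.94, Depp1 by 2.42, Mat2a by 1.0, Prpf4b by 0.69, Tet3 by 0.67, Chd6 by 0.56, Tra2a by 0.74 and Syt1 by 1.44. Further genes in this direction were Acta2 by 1.42, Apold1 by 1.71, Gm44866 by 1.70, Gm26930 by 1.82, Mir7052 by 1.90, C030006N10Rik by 2.03, Gm13905 by 1.90 and Gm19445 by 1.72. The difference at 6 months exceeded that of the other ages for C230066G23Rik by 2.32, Gm22228 by 3.63 and ENSMUSG00000095041 by 1.52.

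In the other direction, the values were negative for Bace2 at -1.31, Hes5 at -1.99, Sox9 at -0.86, Aldh1l1 at -0.87, Mlc1 at -0.99, S100b at -0.67, Slc7a10 at -0.91 and Slc1a4 at -1.04. Negative values were also found for Fzd9 at -1.04, Hey1 at -0.70, Nog at -1.01, Inhbb at -1.21, Bmp7 at -0.97, Fabp7 at -1.61, Igfbp2 at -0.96 and Gdf10 at -1.24. The same sign held for Sqle at -0.56, Lcat at -0.74, Gfap at -1.35, Ifi27l2a at -1.40, Tmem212 at -1.82, Mrpl48-ps at -2.06, Klk1b22 at -7.06 and Cacng6 at -3.54. Below 0 as well were Dhrs13 at -0.81, Gm3654 at -2.19 and Timp4 at -0.97. The WT 6-month column lay outside the range of all other ages in many of these genes, and its part in the differences was not tested.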

How the results depend on the processing

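The direction and size of the results depended on the reference more than on scaling. A list median was counted as reversed only if it was past 0.3 in either direction and changed sign, and a gene difference only if past 0.5. Smaller values that changed sign were counted as moved or as within their limits. Of 825 recomputed list medians over 55 lists, 761 stayed within their limits, 58 moved and 6 reversed, and of 1430 recomputed differences of 102 genes 1304 stayed, 92 moved and 34 reversed. No change of scaling, pseudocount, filter or length and GC trend reversed any of them. The count of higher genes, 1387, was 647 with a pseudocount of 1, 3876 without a filter, 873 with at least 1 FPKM and 479 with a threshold of 1, it was 1523 over recovered genes and libraries only, and on that base it ranged from 1497 to 1688 with a library left out. The count of lower genes, 1679, was 948 with a pseudocount of 1, 3146 without a filter and 286 with a threshold of 1, it was 1493 over recovered genes and libraries only, and on that base it ranged from 1257 to 2118 with a library left out. The 23 genes of the limma test became 1515 with all 30 libraries in 1 fit and ranged from 0 to 2992 with a library left out. Of the 55 lists, 7 had a median over 0.3 above that of all genes and 12 against WT at 4 and 9 months (5 to 8 with a library left out), and 9 had one over 0.3 below, or 5 with a pseudocount of 1 (6 to 18 with a library left out).

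With the mean of WT at 4 and 9 months as reference, the reversed list medians were sterol synthesis 0.0711, glycolysis 0.123, cell division 0.245, endothelial markers -1.29 and ependymal markers 1.04. Lists with a median inside 0.3 changed sign as well and are not among these. Examples are chromatin modifiers from 0.28 to -0.47, complex I from -0.15 to 0.48 and the mitochondrial ribosome from -0.22 to 0.38. The reversed gene differences were Bace2 0.582, Zbtb16 -0.645, Mt3 0.691, Neat1 -0.967, Prpf4b -0.155, Malat1 -0.765, Tet3 -0.736, Chd6 -0.379, Tra2a -0.351, Mlc1 0.089, S100b 0.0849, Aldoc 0.104, Notch3 -1.04, Nog 0.0198, Sqle 0.0996 and Fdft1 0.291, and, further, Msmo1 0.374, Clu 0.0501, Ifi27l2a 0.198, Tmem212 1.67, Klk1b22 1.26, Cacng6 0.54, Dhrs13 0.336, Gm44866 -1.81, Gm26930 -0.0195, C030006N10Rik -0.0275, Gm13905 -0.94, Gm19445 -0.181, C230066G23Rik -1.32, ENSMUSG00000095041 -0.0966, Gm3654 0.122 and Timp4 0.439. With a library left out, cell division ranged from -0.59 to 0.00427 and turned sign without AD library A. With a library left out, Ccl2 ranged from -0.072 to 1.3 and turned sign without AD library B. With a library left out, mt-Atp8 ranged from -0.145 to 3.61 and turned sign without AD library A. The causes were not tested. No paired analysis was possible because the recovered libraries carry no replicate number. The limma fits were added after seeing the data. Genes that were not resolved have no library values, so their spread is unknown.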
